A study of Mus musculus with 160 samples.

Results

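Cxcl9, Cxcl10, Cxcl11 and Cxcr3 were followed across 160 RNA-seq libraries of mouse distal colon. These 4 genes were found among the 39179 genes of the count files by matching Ensembl identifiers to mouse symbols. The genes were chosen by their measured levels and their knockout and strain differences in earlier results of these data, and are described by mouse line, genotype and strain. CXCL9, CXCL10 and CXCL11 are chemokines that bind one shared receptor, CXCR3, which is carried mainly by activated T cells and natural killer cells. Interferon-gamma, made by those same lymphocytes, induces the ligands in macrophages, dendritic cells, stromal and epithelial cells. In the inflamed gut the ligands and the receptor are best known for bringing type 1 T cells into the mucosa.

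The libraries came from 4 lines, each with homozygous knockout mice and wild-type mice, named here by the targeted gene. The Nckap1l line, labelled HEM1, had 16 knockout and 15 wild-type samples, the Dock2 line 18 and 24, and the Gpsm3 line 20 and 20, all on strain C57BL6/J. The Dok3 line had 26 knockout and 21 wild-type samples, with the strain given as 129. Females were present in the Nckap1l line (4 knockout, 8 wild type) and the Dock2 line (8 knockout, 12 wild type), and the other lines were labelled male throughout. The protocol gave dextran sulfate sodium (DSS, a colitis-inducing agent) in the drinking water for 5 days and then water alone, labelled as 3% for the Dock2 and Gpsm3 lines and 3.5% for the Dok3 line. The labels carry no dose for the Nckap1l line, for which the methods describe a lower one, and the methods also describe an earlier round at a lower dose for the Dok3 line, without saying which libraries came from it. Colon was taken on day 10, or on day 12 for the Nckap1l line. The knockouts were global, so no cell type carried the deletion alone. Per the study's methods treated and untreated mice were both sequenced, and the labels do not say which library was which. Every level below therefore mixes the 2 states, and their part in a difference was not tested. In whole tissue, fewer cells of a type and less RNA per cell cannot be told apart. Wild-type mice were littermates of the knockouts, and the colitis experiments of a line were pooled from repeated rounds. The labels tie no library to a litter or round, so the p-values measure the spread between these samples as if they were independent.

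Total counts ran from 4344988 to 19993833 (median 15989625), so that 3 counts, the least that was read as a level, corresponded to 0.150 to 0.690 CPM (counts scaled to library size). The summed colon epithelium markers reached a median of 6428 CPM over all libraries. Skin or striated muscle markers summed to over 100 CPM in 39 of 160 libraries, 17 of them in the Nckap1l line (8 knockout, 9 wild type). The sex markers of 5 Dok3 libraries, 3 knockout and 2 wild type, did not match the male label. Total counts of the targeted genes did not separate the genotypes: Nckap1l was at a median of 14.8 CPM in knockout and 27.2 in wild type, Dock2 at 22.5 and 34.2, Gpsm3 at 0.572 and 3.21, and Dok3 at 3.16 and 3.63, with overlapping ranges in each line. The deleted part of each gene is not given in the sources used here, so these counts do not check the labels, and "knockout" means labelled knockout throughout.

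The 3 ligand genes lie next to each other on chromosome 5, all on the minus strand (GRCm38, the assembly of the mm10 build named by the submitters). Cxcl9 (ENSMUSG00000029417) spans chr5:92321347-92328079, Cxcl10 (ENSMUSG00000034855) chr5:92346638-92348889 and Cxcl11 (ENSMUSG00000060183) chr5:92359544-92365485. Cxcr3 (ENSMUSG00000050232) spans chrX:101731535-101734269, also on the minus strand. Cxcl10 and Cxcl11 lie within Art3, a plus-strand gene, and share 133 and 1582 exonic bases respectively with plus-strand genes (Art3, and for Cxcl11 also the processed pseudogene Gm2673). The library kit keeps strand, but the strand setting of the counting is not given, so reads in those bases are uncertain. Art3 itself was at 4.18 to 62.0 CPM and Gm2673 at 0 in 157 libraries. Spearman's rho of Art3 over the 160 samples, with the mean of each line and genotype removed, was −0.17 with Cxcl10 and −0.03 with Cxcl11. Cxcl11 is annotated as a polymorphic pseudogene: the C57BL/6 strain is known to carry a frameshift in it, so that its transcript there encodes no intact chemokine.

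The 250 bases before the RefSeq start of Cxcl9, Cxcl10 and Cxcr3 are shown because levels of these genes varied together across samples (below). They are RefSeq sequences of GRCm38.p6, printed 5′ to 3′ on the strand of the gene, at chr5:92328080-92328329, chr5:92348890-92349139 and chrX:101734148-101734397, all minus strand. Capitals mark letters that match one of 3 patterns sought on both strands: GAAA followed by any 2 bases and GAAA again, the core of an interferon-stimulated response element, the same without its last base (GAAANNGAA), and GGGANTTCC, an NF-kB site. The first 2 patterns overlap by construction, and the patterns were chosen after the sequences had been seen.
Cxcl9: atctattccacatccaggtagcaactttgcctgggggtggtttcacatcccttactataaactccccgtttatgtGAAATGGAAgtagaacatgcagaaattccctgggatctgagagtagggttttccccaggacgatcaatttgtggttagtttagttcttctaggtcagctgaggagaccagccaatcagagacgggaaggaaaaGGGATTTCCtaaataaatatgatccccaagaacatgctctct
Cxcl10: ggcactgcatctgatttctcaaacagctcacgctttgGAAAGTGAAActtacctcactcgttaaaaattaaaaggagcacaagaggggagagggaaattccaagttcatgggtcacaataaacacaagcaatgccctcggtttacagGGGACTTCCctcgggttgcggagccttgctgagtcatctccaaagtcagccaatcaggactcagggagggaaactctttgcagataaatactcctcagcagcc
Cxcr3: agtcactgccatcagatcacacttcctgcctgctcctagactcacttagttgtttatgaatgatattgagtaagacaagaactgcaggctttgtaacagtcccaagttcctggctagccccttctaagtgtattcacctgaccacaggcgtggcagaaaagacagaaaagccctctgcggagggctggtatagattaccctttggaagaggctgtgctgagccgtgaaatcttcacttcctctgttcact
Counting back from the base before the start as −1, the Cxcl10 window held GAAAGTGAAA at −213 to −204 and GGGACTTCC at −103 to −95. The Cxcl9 window held GAAATGGAA at −175 to −167 and GGGATTTCC at −42 to −34. The Cxcr3 window held none of the 3 patterns. Unlike the ligand windows, it lies partly inside the annotated span of its gene, which reaches chrX:101734269. No such window was available here for Cxcl11. Of 32851 mouse promoter windows of the same length, 2.98% held the whole response element core, 7.13% GAAANNGAA and 1.43% GGGANTTCC. A match is a run of letters, not a measured binding site.

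All 4 genes were low in most libraries, and Cxcl9 and Cxcl10 were high in a minority. Cxcl9 ran from 0 to 106 CPM over the 160 libraries (median 1.97) and passed 10 CPM in 29 of them. Cxcl10 ran from 0.261 to 62.2 CPM (median 2.66) and passed 10 CPM in 22. Cxcl11 stayed near the detection floor, at 0.0611 to 13.7 CPM (median 0.533, or a median of 8 counts), with 13 libraries at 3 counts or fewer. The receptor gene Cxcr3 varied least, from 0.167 to 3.18 CPM (median 0.744, 11 counts). Per kilobase of exon, the medians were 0.653 CPM for Cxcl9, 1.18 for Cxcl10, 0.140 for Cxcl11 and 0.430 for Cxcr3. Thus Cxcl10 was the most abundant of the 4 at the median, and Cxcl9 exceeded it per kilobase in 49 of 160 libraries.

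**Figure D1:**
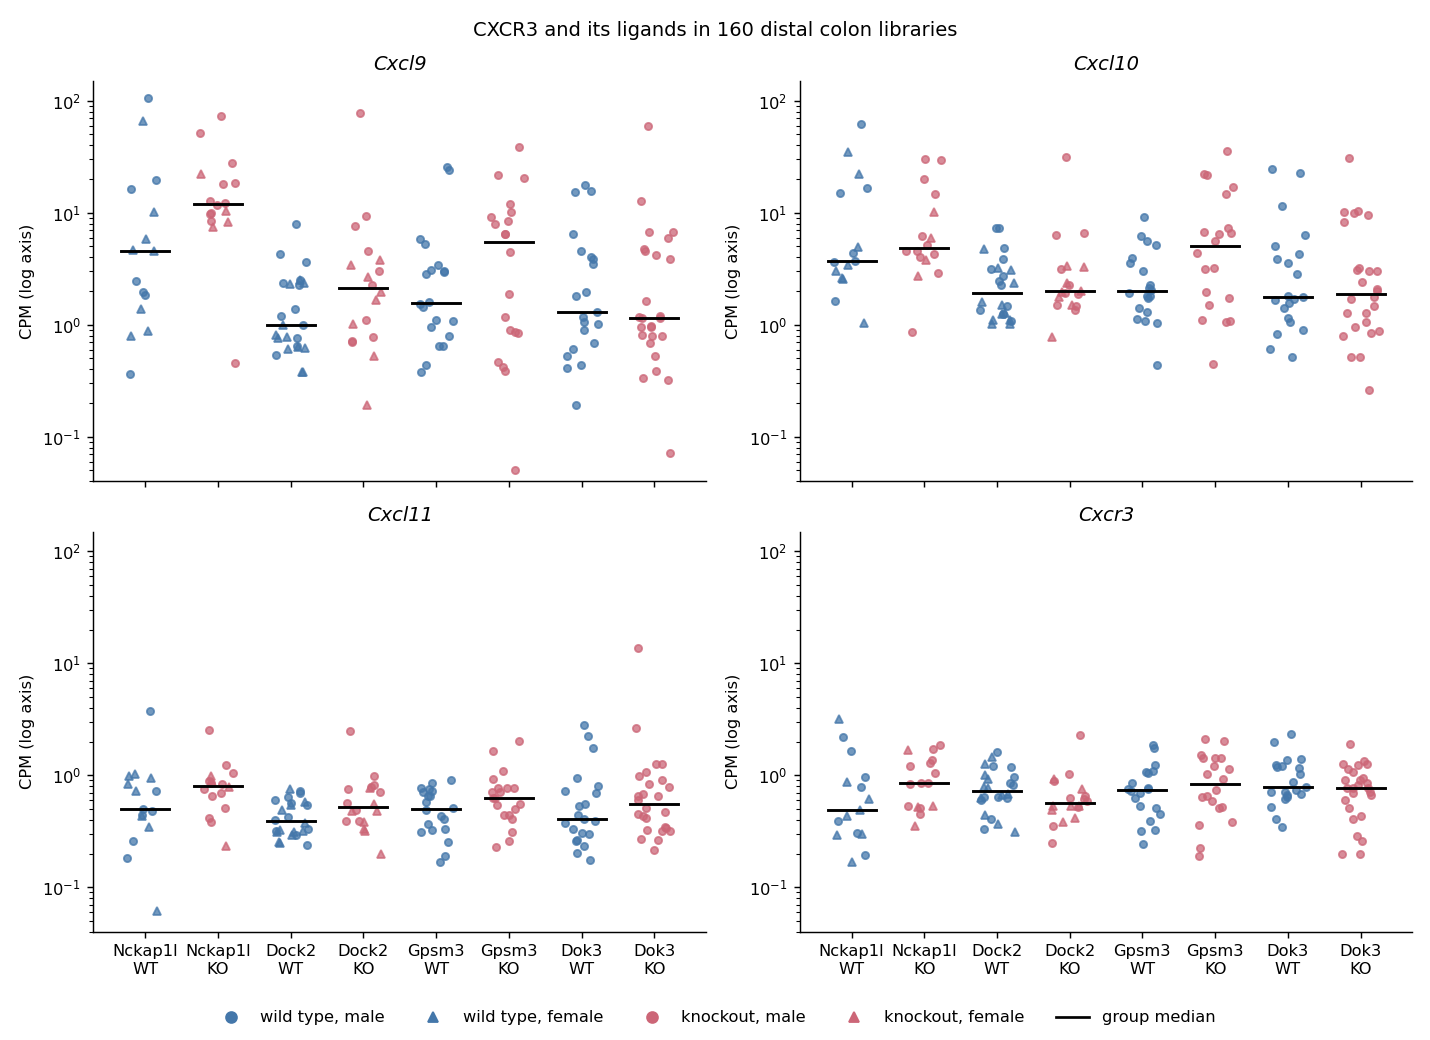
CPM of Cxcl9, Cxcl10, Cxcl11 and Cxcr3 (log axis) in each of 160 libraries by line and genotype; circles are males, triangles females, bars group medians, and the 1 library with no Cxcl9 count is drawn at 0.05. Cxcl9 and Cxcl10 spread over more than an order of magnitude within most groups, and the full ranges of every neighbouring pair of groups in the order of medians overlap.

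By group, the Nckap1l knockout samples had the highest median of Cxcl9, at 12.0 CPM (lowest 0.456, highest 73.0, n = 16). Next came Gpsm3 knockout at 5.44 CPM (0 to 38.3, n = 20) and Nckap1l wild type at 4.57 CPM (0.365 to 106, n = 15). The Dock2 knockout samples had a median of 2.12 CPM (0.191 to 77.1, n = 18) and the Gpsm3 wild type 1.56 CPM (0.378 to 25.5, n = 20). The lowest medians were those of Dok3 wild type at 1.31 CPM (0.193 to 17.7, n = 21), Dok3 knockout at 1.14 CPM (0.0714 to 59.4, n = 26) and Dock2 wild type at 1.00 CPM (0.377 to 7.96, n = 24). The full ranges of all 7 neighbouring pairs in this order overlapped, and so did the interquartile ranges of 6 of the 7 pairs. The exception was the step from Nckap1l knockout (lower quartile 9.43 CPM) to Gpsm3 knockout (upper quartile 9.42 CPM).

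For Cxcl10 the order began with Gpsm3 knockout at a median of 5.02 CPM (0.446 to 35.4), Nckap1l knockout at 4.88 CPM (0.854 to 30.3) and Nckap1l wild type at 3.72 CPM (1.04 to 62.2). The other 5 groups had medians between 1.78 CPM (Dok3 wild type, 0.519 to 24.4) and 1.99 CPM (Gpsm3 wild type, 0.441 to 9.11). For Cxcl11 the group medians lay between 0.388 CPM (Dock2 wild type) and 0.809 CPM (Nckap1l knockout), and for Cxcr3 between 0.493 CPM (Nckap1l wild type) and 0.852 CPM (Nckap1l knockout). Ranges and interquartile ranges overlapped in all 7 neighbouring pairs for each of these 3 genes.

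The highest levels came from a few libraries in which several of the genes peaked at once. Replicate 3 of the Dock2 knockout, a male, had the highest level of all 4 genes among the 42 libraries of its line: 77.1 CPM of Cxcl9, 31.2 of Cxcl10, 2.48 of Cxcl11 and 2.29 of Cxcr3. The next Cxcl9 value in that line was 9.43 CPM. Replicate 10 of the Nckap1l wild type led its line in all 3 ligands, with 106 CPM of Cxcl9, 62.2 of Cxcl10 and 3.75 of Cxcl11, and was the second of 31 for Cxcr3 at 2.20 CPM. Replicate 9 of the Dok3 knockout led its line in the 3 ligands, with 59.4 CPM of Cxcl9, 30.5 of Cxcl10 and 13.7 of Cxcl11, but ranked 25 of 47 for Cxcr3 at 0.773 CPM. That Cxcl11 value was the highest of the series, and the next in the line was 2.82 CPM. In the Gpsm3 line the peaks were split: replicate 10 of the knockout led for Cxcl9 (38.3 CPM), and replicate 14 for Cxcl10 (35.4 CPM) and Cxcl11 (2.01 CPM). Ifng, the interferon-gamma gene, was listed at 0 in 55 libraries and reached its series maximum of 1.93 CPM (30 counts) in Dok3 knockout replicate 9, while Dock2 knockout replicate 3 had 1.02 CPM (16 counts) and Nckap1l wild-type replicate 10 had 1.10 CPM (20 counts).

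The balance of Cxcl9 and Cxcl10 is given by group as a description. The log2 ratio of Cxcl9 to Cxcl10 per kilobase (0.1 CPM added to each) had a median of 0.78 in Nckap1l knockout samples, −0.77 in Nckap1l wild type and between −1.14 and −0.21 in the other 6 groups. Cxcl9 was the higher per kilobase in 13 of 16 Nckap1l knockout libraries and 3 of 15 wild-type libraries of that line. In the Dock2 line it was the higher in 7 of 18 knockout and 2 of 24 wild-type libraries, and in the Gpsm3 line in 5 of 20 and 8 of 20. The ratios of knockout and wild-type samples overlapped in every line.

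Knockout and wild-type samples were compared because each line asks what loss of its gene does in the colon. These contrasts are part of how the 4 genes were picked out, so the values describe them and carry no test. Differences are log2 fold changes of an edgeR fit across all genes, with sex as a term in the Nckap1l and Dock2 lines. In the Gpsm3 line Cxcl10 was higher in knockout samples by 1.53 (SE 0.43), Cxcl9 by 0.82 (SE 0.58), Cxcl11 by 0.49 (SE 0.23) and Cxcr3 by 0.25 (SE 0.26). For Cxcl10, 5 of 20 knockout samples passed 10 CPM, at 14.7 to 35.4 CPM, against 0 of 20 wild-type samples. The other knockout samples lay within the wild-type range. Markers of several immune cell types had higher estimates in the same contrast: 6 of 6 tested neutrophil markers, 9 of 9 macrophage markers and 8 of 8 T cell markers. So did 6 of 6 striated muscle markers, and none of these markers passed an adjusted p of 0.05. With the neutrophil marker mean as a term the Cxcl9 estimate was 0.18 (SE 0.54) and that of Cxcl10 1.25 (SE 0.40). The summed neutrophil markers ranged from 3.0 to 1126 CPM in knockout and from 2.9 to 1076 CPM in wild-type samples. Their part in the result was not tested.

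In the Dock2 line Cxcl9 was higher in knockout samples by 1.61 (SE 0.48), Cxcl10 by 0.53 (SE 0.33), and Cxcr3 differed by −0.25 (SE 0.21). Without knockout replicate 3 these values were 0.64 (SE 0.36), −0.0035 (SE 0.26) and −0.44 (SE 0.19), so 1 library carried most of the Cxcl9 value and all of the Cxcl10 value. Cxcl11 had too few counts to be kept by the count filter in this line and in the Dok3 line. Fitted without the filter, it differed by 0.51 (SE 0.20) and 0.75 (SE 0.42). The Dock2 value includes knockout replicate 3, at 2.48 CPM of Cxcl11 where the next in the line was 0.975. The Dok3 value includes knockout replicate 9, at 13.7 CPM where the next in that line was 2.82. All 6 B cell markers had lower estimates in Dock2 knockout samples (median −0.89), and 1 of them, Cr2, a complement receptor, passed at −1.53 (SE 0.28, adjusted p 0.0127, edgeR). Their sum ranged from 10.8 to 70.6 CPM in knockout and from 4.05 to 104 CPM in wild-type samples. The 6 skin and 6 striated muscle markers also had lower estimates (medians −0.72 and −1.36, none passing), and without libraries holding their RNA the Cxcl9 difference was 1.89 (SE 0.61).

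In the Nckap1l line the fold depended on how high values were weighted. The edgeR estimate was 0.0031 (SE 0.68) for Cxcl9, −0.62 (SE 0.57) for Cxcl10, 0.01 (SE 0.37) for Cxcl11 and 0.09 (SE 0.38) for Cxcr3. Yet 15 of 16 knockout samples had at least 7.45 CPM of Cxcl9, and the wild-type median was 4.57 CPM. On the log scale of limma-voom the Cxcl9 difference was 1.34 (SE 0.73). In the edgeR fit it was 0.98 (SE 0.74) without wild-type replicate 10. Without wild-type replicate 8, the next highest of the wild type, the edgeR value was 0.53 (SE 0.62). With the neutrophil marker mean as a term in the edgeR fit, the Cxcl9 difference was 1.41 (SE 0.67). The summed neutrophil markers ranged from 6.1 to 1801 CPM in wild-type and from 6.3 to 1009 CPM in knockout samples of this line, the highest being wild-type replicate 10. All 6 B cell markers had lower estimates in knockout samples (median −2.59, none passing), with a sum of 1.58 to 89.8 CPM against 2.49 to 336 CPM in wild type, and all 6 skin markers had higher estimates (median 0.79, none passing). Yet the summed skin markers had a lower median in knockout (10.9 CPM, 4.48 to 8588) than in wild-type samples (830 CPM, 4.45 to 5389). Without the 17 libraries holding skin or muscle RNA the Cxcl9 difference was 0.56 (SE 1.13). The part of these markers in the result was not tested.

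In the Dok3 line the differences were 0.24 (SE 0.57) for Cxcl9, −0.15 (SE 0.48) for Cxcl10 and −0.29 (SE 0.21) for Cxcr3. The sign for Cxcl9 rested on knockout replicate 9: without it the difference was −0.64 (SE 0.49), and DESeq2 gave −0.67 (SE 0.46) on all samples. Leaving out the 5 libraries whose sex markers did not match the label gave 0.26 (SE 0.59). In Dok3 knockout samples all 8 tested T cell markers (median −0.40), 6 of 6 skin markers (−0.57) and 6 of 6 striated muscle markers (−1.07) had lower estimates. Higher estimates were found for 8 of 8 colon epithelium markers (median 0.18) and 6 of 7 neutrophil markers (0.53), and none of these markers passed. Yet the summed neutrophil markers had a lower median in knockout (13.3 CPM, 1.71 to 9541) than in wild-type samples (18.4 CPM, 1.87 to 4664). The part of all these markers in the result was not tested.

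**Figure D2:**
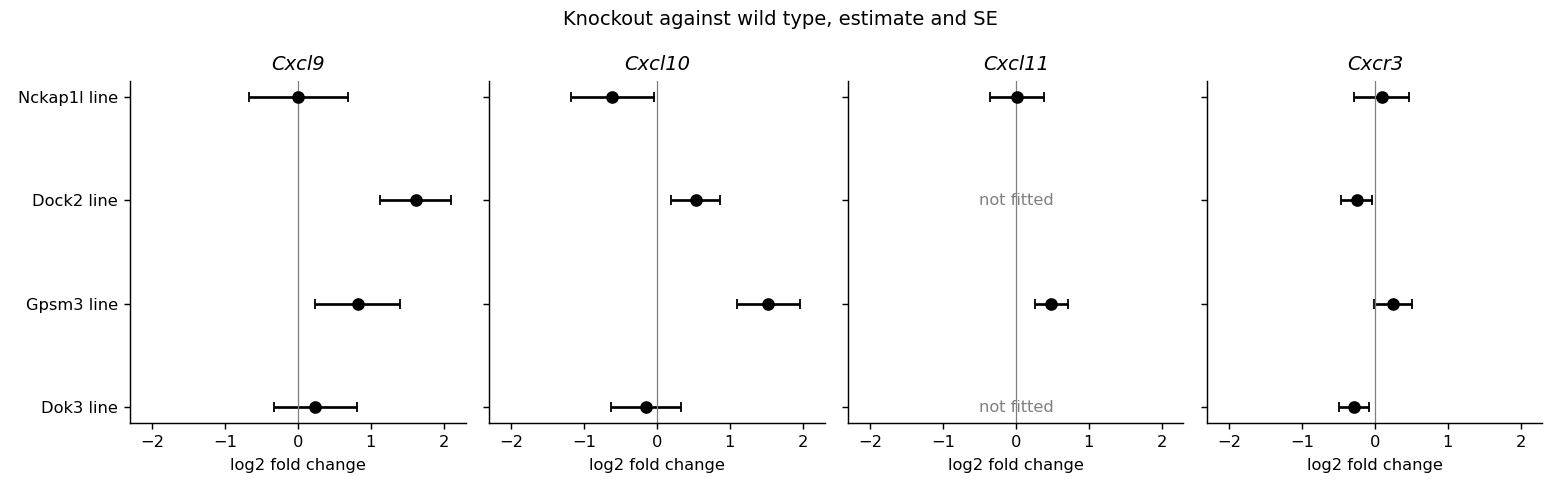
Log2 fold change of knockout against wild type (x axis, edgeR estimate with its SE as the bar) for each of the 4 genes in each line (y axis); "not fitted" marks Cxcl11 where too few counts remained. The estimates range from −0.62 for Cxcl10 in the Nckap1l line to 1.61 for Cxcl9 in the Dock2 line.

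No adjusted p is read for the 4 genes in the knockout comparisons. Over all genes, 0 percent of 17947 passed an adjusted p of 0.05 (edgeR) in the Nckap1l line. There 807 genes had an unadjusted p under 0.05, and 21 were called by DESeq2 and 0 by limma-voom. In the Dock2 line 0.034 percent of 17648 genes passed, and in the Gpsm3 line 0.00569 percent of 17560. In the Dok3 line 0 percent of 17612 passed, with 386 genes at an unadjusted p under 0.05, 3 called by DESeq2 and 0 by limma-voom. No gene of the interferon-gamma signalling list (10 of 11 tested) passed in any of the 4 lines. The difference of Irf1, an interferon-induced transcription factor, was 0.41 (SE 0.17) in the Gpsm3 line and 0.34 (SE 0.11) in the Dock2 line, against 0.028 (SE 0.23) in the Nckap1l line and 0.048 (SE 0.16) in the Dok3 line. The lists of interferon type I and III signalling, interleukin-12 and type 1 induction, other CXC chemokines and other CXC receptors also held 0 passing genes in the 4 lines. The same was true of 7 genes that bind, process or transmit the signal of CXCR3 ligands. Among them, Dpp4, the peptidase that trims the ligands, differed by −0.11 to 0.09, and Ackr3, a scavenging receptor for CXCL11, by −0.11 to 0.08. Pf4, which encodes another CXCR3-binding chemokine, differed by −0.17 to 0.27.

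The strain comparison set wild-type males of the Dok3 line (129, n = 21) against those of the 3 C57BL6/J lines (7, 12 and 20 samples). It too belongs to the way the genes were picked and is given as a description. Strain cannot be told apart here from line, DSS dose and run of samples. The difference was −0.57 (SE 0.50) for Cxcl9, −0.12 (SE 0.38) for Cxcl10, 0.22 (SE 0.27) for Cxcl11 and 0.23 (SE 0.21) for Cxcr3. No adjusted p is read for the 4 genes here. Over all genes, 16.1 percent of 19603 passed an adjusted p of 0.05 (edgeR). Against the Gpsm3 line alone the Cxcl10 difference was 0.76 (SE 0.43), and without libraries holding skin or muscle RNA it was 0.28 (SE 0.45). In the same contrast 4 of 9 T cell markers passed, all higher in the Dok3 line: Trac by 1.45 (SE 0.26, adjusted p 3.92e-05, edgeR), Cd3e by 0.81 (SE 0.22), Cd5 by 0.66 (SE 0.21) and Cd4 by 0.59 (SE 0.21). Of the other CXC receptors 1 of 4 passed, Cxcr6, another chemokine receptor of T cells, higher by 0.35 (SE 0.08, adjusted p 0.00162, edgeR). Of the interferon-gamma list 1 of 10 passed, Ciita, the regulator of MHC class II genes, at 0.71 (SE 0.17, adjusted p 0.00185). Il18r1 and Il27ra, receptors for interleukin-18 and interleukin-27, were 2 of 9 interleukin-12 and type 1 genes to pass, at 0.69 (SE 0.19) and 0.60 (SE 0.21). Of the other CXC chemokines 3 of 9 passed, Ppbp at 2.70 (SE 0.84), Cxcl14 at 1.08 (SE 0.22) and Cxcl12 at 0.44 (SE 0.16). Of the dendritic cell markers 3 of 8 passed, Siglech at 0.84 (SE 0.22), Xcr1 at 0.70 (SE 0.16) and Itgae at 0.37 (SE 0.09). The colon epithelium marker Krt20 differed by −0.59 (SE 0.13, adjusted p 0.000563), 1 of 8 to pass. All 8 neutrophil, 6 skin and 6 striated muscle markers also had higher estimates in the Dok3 line (medians 0.63, 1.33 and 0.93, none passing).

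Sex was not used in choosing the genes, and it could be tested in the Dock2 and Nckap1l lines. In the Dock2 line Cxcl9 and Cxcl10 were lower in females. Cxcl9 had a median of 0.907 CPM in 20 females (0.191 to 3.77) and of 2.26 CPM in 22 males (0.531 to 77.1), with 6 males above the highest female. Cxcl10 had a median of 1.69 CPM in females (0.774 to 4.70) and 2.36 CPM in males (1.09 to 31.2), again with 6 males above the highest female. The ranges overlapped for both. The log2 fold change of female against male was −1.73 for Cxcl9 (SE 0.50, adjusted p 0.0229, edgeR quasi-likelihood test with Benjamini-Hochberg adjustment) and −1.04 for Cxcl10 (SE 0.34, adjusted p 0.0419). Both passed where 9.75 percent of 17648 genes did. Cxcr3 differed by −0.23 (SE 0.21, adjusted p 0.516). Of the interferon-gamma list 0 of 10 genes passed, with Irf1 at −0.19 (SE 0.11, adjusted p 0.292). Of the interferon type I and III list 1 of 8 passed, Irf3, a transcription factor of virus sensing, which was higher in females at 0.14 (SE 0.04, adjusted p 0.0151). Krt20 was 1 of 8 colon epithelium markers to pass, at −0.40 (SE 0.11, adjusted p 0.0177). Of the CXCR3 ligand and signalling list 1 of 7 passed, Gnai3, an inhibitory G protein subunit, at −0.22 (SE 0.05, adjusted p 0.00664). Cxcl11 had too few counts, with medians of 0.354 CPM in females and 0.564 CPM in males.

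Both calls were lost without 1 library, in the splits by genotype and with a neutrophil term. The wild-type and knockout splits held 24 and 18 samples, and over all genes 341 and 21 were called there, against 1721 in the main fit. Without Dock2 knockout replicate 3, a male, the differences were −0.97 for Cxcl9 (adjusted p 0.0869) and −0.63 for Cxcl10 (adjusted p 0.125). Within wild-type samples alone they were −1.09 (adjusted p 0.171) and −0.74 (adjusted p 0.246), and within knockout samples −2.48 (adjusted p 0.261) and −1.42 (adjusted p 0.315). All 7 tested neutrophil markers had lower estimates in females (median −1.42, none passing), all 6 striated muscle markers were lower (median −2.56) and all 6 skin markers higher (median 1.43). The median sums went the other way for muscle (44.3 CPM in females, 40.6 in males) and for skin (7.46 and 8.57 CPM). The summed neutrophil markers ranged from 3.6 to 341 CPM in females and from 3.7 to 2363 CPM in males. With their mean as a term the differences were −1.05 for Cxcl9 (adjusted p 0.139) and −0.62 for Cxcl10 (adjusted p 0.218). Sample numbers also followed sex, with 18 of 20 females numbered above every male, so sex and that order cannot be told apart.

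**Figure D3:**
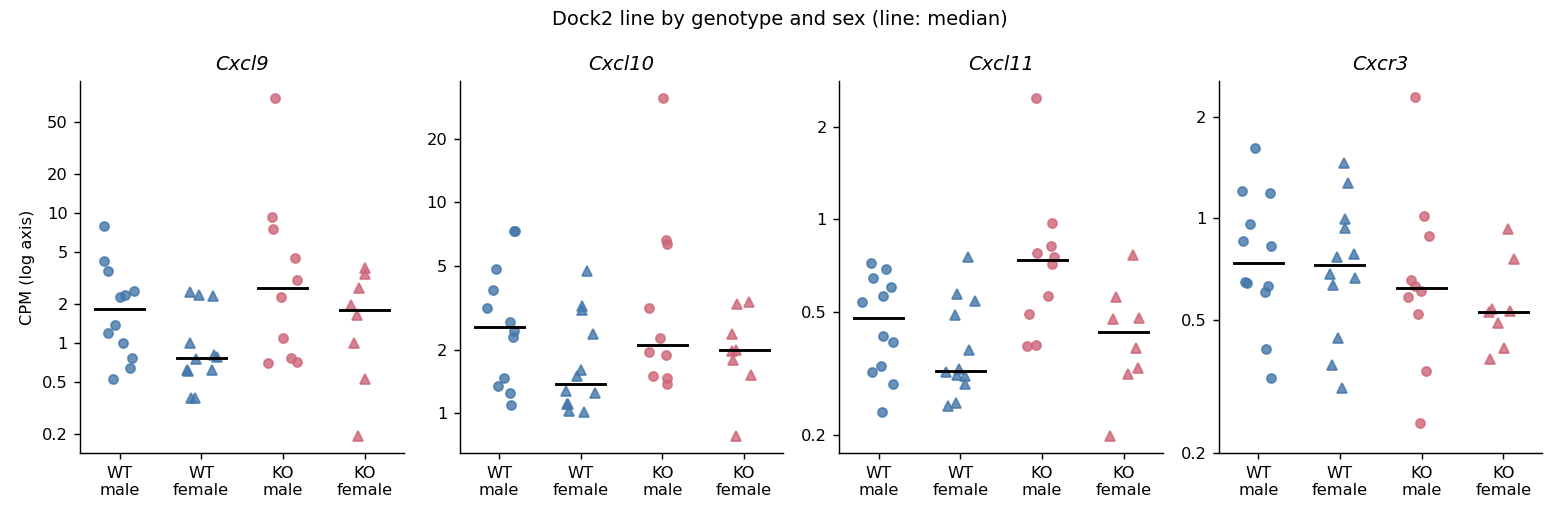
CPM of the 4 genes (log axes, 1 scale per panel) in the Dock2 line by genotype and sex, 12, 12, 10 and 8 libraries from left to right, with medians as bars. One knockout male is the highest in every panel, at 77.1 CPM of Cxcl9, and the other libraries of the sexes overlap.

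In the Nckap1l line none of the 4 genes passed for sex, where 0.178 percent of 17947 genes did. Cxcl9 had a median of 6.65 CPM in 12 females (0.794 to 65.7) and 12.1 CPM in 19 males (0.365 to 106), a log2 difference of −0.82 (SE 0.71, adjusted p 0.580). Cxcl10 differed by −0.78 (SE 0.60, adjusted p 0.521), Cxcl11 by −0.38 (SE 0.39, adjusted p 0.642) and Cxcr3 by −0.31 (SE 0.39, adjusted p 0.721). All 6 skin markers had higher estimates in females (median 1.30) and all 8 colon epithelium markers lower ones (median −0.29), none passing. The summed skin markers ranged from 4.4 to 6353 CPM in females (median 3076) and from 5.0 to 8588 CPM in males (median 11.5). A run of 9 samples in this line held males only, so sex and run were partly bound together. The part of these markers and of the run was not tested. The difference between the lines in the sex effect was 0.88 for Cxcl9 (SE 0.83, adjusted p 0.695) and 0.25 for Cxcl10 (SE 0.64, adjusted p 0.904), where 0.037 percent of 18916 genes passed, so the sex effect was not shown to differ between them.

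How the genes varied together between samples was measured on log2 CPM after the mean of each line, genotype and sex had been removed, so that group differences do not enter. The 24 relations (6 pairs in 4 lines) were all positive, and 20 passed an adjusted p of 0.05 by Pearson's r and 17 by Spearman's rho (two-sided permutation tests). These samples hold DSS-treated and untreated mice together, which alone can make genes vary together, and this was not tested. Cxcl9 and Cxcl10 were the closest pair in all 4 lines. Pearson's r was 0.892 in the Nckap1l line (rho 0.872, n = 31), 0.776 in the Dock2 line (rho 0.701, n = 42), 0.865 in the Gpsm3 line (rho 0.866, n = 40) and 0.858 in the Dok3 line (rho 0.800, n = 47). Each had an adjusted permutation p of 2.67e-05 for r, from a raw p of 1e-05, the smallest that 100000 permutations can give. Without the 2 samples farthest from the median of Cxcl9, r lay between 0.644 and 0.852, and within runs of sample numbers it lay between 0.776 and 0.967.

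**Figure D4:**
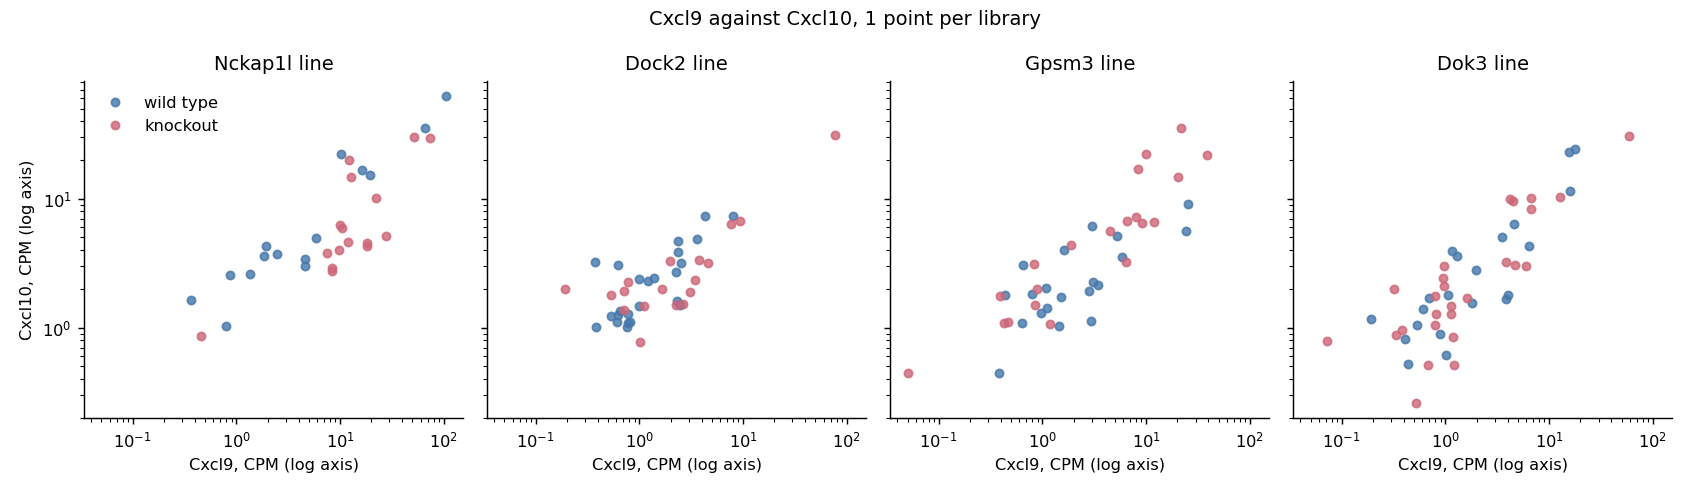
Cxcl9 (x axis) against Cxcl10 (y axis) in CPM on log axes, 1 point per library, 1 panel per line, wild type in blue and knockout in red; the library with no Cxcl9 count is drawn at 0.05. High Cxcl9 goes with high Cxcl10 in each line, with r between 0.776 and 0.892 after group means were removed.

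Cxcl11 followed the other ligands less closely. Its r with Cxcl10 was 0.746 in the Nckap1l line, 0.704 in the Dok3 line, 0.601 in the Gpsm3 line and 0.491 in the Dock2 line (adjusted permutation p at most 0.00176). By rho this pair passed in 3 of 4 lines, the lowest rho being 0.314 in the Dock2 line. With Cxcl9 the r of Cxcl11 was 0.769 in the Dok3 line and 0.371 in the Dock2 line (adjusted permutation p 0.0199). The Dock2 value rested on 2 samples, since it was 0.0824 without them and rho over all samples was 0.123 (adjusted permutation p 0.474). Sampling noise at a median of 8 counts limits any correlation of this gene.

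The receptor gene followed the ligands moderately. The r of Cxcr3 with Cxcl9 was 0.693 in the Nckap1l line, 0.689 in the Gpsm3 line, 0.523 in the Dok3 line and 0.397 in the Dock2 line (adjusted permutation p at most 0.0125). By rho this pair passed in 3 of 4 lines, the lowest rho being 0.263 in the Dock2 line. With Cxcl10 the r of Cxcr3 lay between 0.253 (Dock2 line, adjusted permutation p 0.107, and −0.0190 without 2 samples) and 0.658 (Nckap1l line). With Cxcl11 it lay between 0.242 and 0.432, and passed only in the Nckap1l line (adjusted permutation p 0.0199).

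The same measure was taken against 8 partner genes: the inducer Ifng, the transcription factor gene Irf1, the T cell genes Cd3e and Cd8a, the natural killer cell gene Ncr1, the macrophage gene Adgre1, the neutrophil gene S100a8, and Il12b, a subunit of interleukin-12. All 128 relations were positive, 111 passed by r and 98 by rho. Ifng had r of 0.709 to 0.766 with Cxcl9 and 0.660 to 0.808 with Cxcl10, although 55 libraries held no Ifng count. Irf1 had r of 0.603 to 0.764 with Cxcl9 and 0.485 to 0.795 with Cxcl10.

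The r of Cxcr3 was 0.499 to 0.840 with Cd8a, 0.438 to 0.759 with Cd3e and 0.593 to 0.702 with Adgre1, all passing in 4 of 4 lines, against 0.387 to 0.458 with Irf1 and 0.321 to 0.554 with Ifng, which also passed in 4 of 4. By rho, Ifng passed in 2 of 4 lines, and Cd8a, Cd3e, Adgre1 and Irf1 in 4 of 4. Without the 2 samples farthest from the median of Ifng, the lowest r of Cxcr3 with Ifng was 0.169. With Ncr1 the r of Cxcr3 was 0.115 to 0.590, passing in 3 of 4. Whether these values of r differ from each other was not tested. Cxcl9 had r of 0.426 to 0.754 with Cd3e and 0.430 to 0.631 with Adgre1, passing in 4 of 4 lines. By rho, Cd3e passed with Cxcl9 in 3 of 4 lines and Adgre1 in 4 of 4. Without the 2 samples farthest from the median of Cd3e, the lowest r of Cxcl9 with Cd3e was 0.114. With Cd8a the r of Cxcl9 reached 0.788 and passed in 3 of 4 lines, the exception being the Dock2 line at 0.189 (adjusted permutation p 0.241), and with Ncr1 it passed in 2 of 4. The neutrophil gene S100a8 also passed by r with Cxcl9 (0.407 to 0.679), Cxcl10 (0.394 to 0.653) and Cxcr3 (0.443 to 0.663) in 4 of 4 lines. By rho it passed in 3 of 4 lines with Cxcl9 and with Cxcl10, and in 4 of 4 with Cxcr3. By line, 23 of 32 partner relations passed by r and 12 by rho in the Dock2 line, against 28 to 31 by r and 26 to 30 by rho in the other 3 lines.

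**Figure D5:**
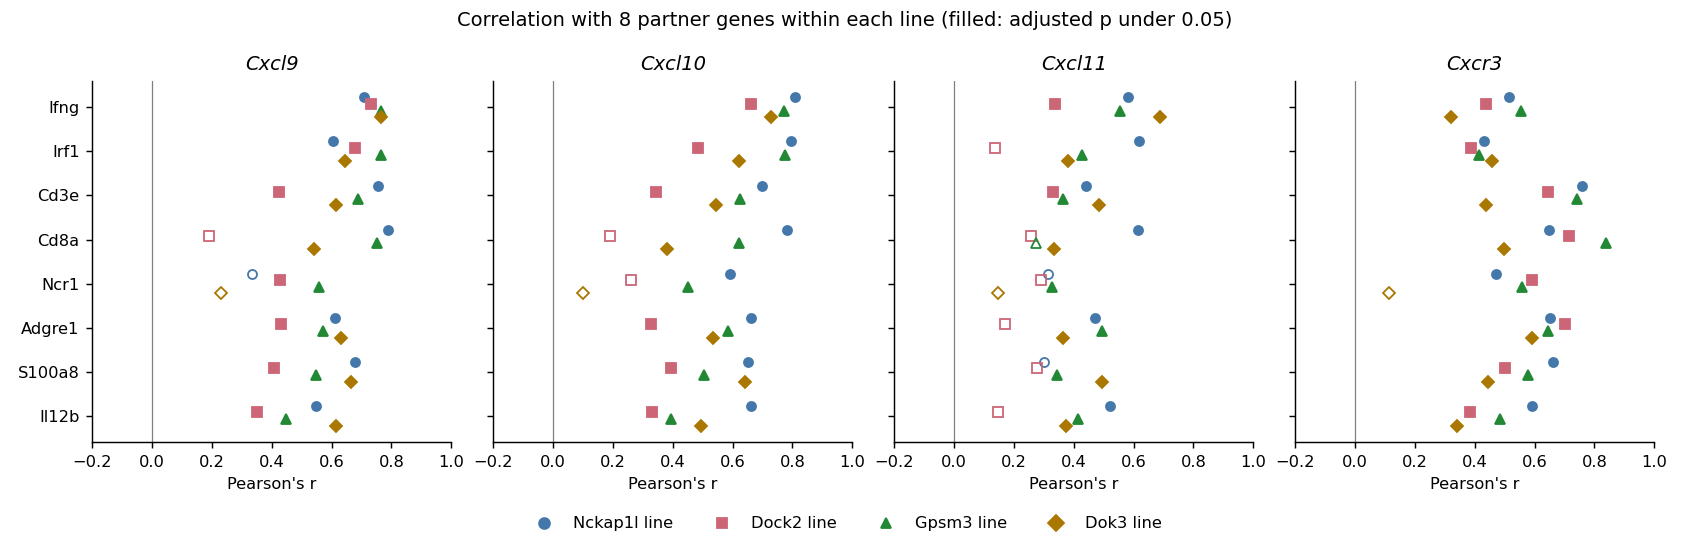
Pearson's r (x axis) of each of the 4 genes with 8 partner genes (y axis) in each line, on log2 CPM with group means removed; filled symbols passed an adjusted permutation p of 0.05. For Cxcl9 the Ifng row lies at 0.709 to 0.766, while for Cxcr3 the rows of Cd8a, Cd3e and Adgre1 reach the highest values.

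Over all 160 samples, with the mean of each line and genotype removed, 16767 other genes with a mean of at least 1 CPM were ranked by Spearman's rho with each of the 4. These ranks are descriptions over samples that share line, depth and an unknown treatment. The genes nearest to Cxcl9 were Ifi47 (rho 0.921), Gm43302 (0.906), Iigp1 (0.903), Gm12250 (0.893) and Tgtp2 (0.887), where the median over all genes was −0.02 and the 95th percentile 0.520. Ifi47, Iigp1 and Tgtp2 encode GTPases. Nearest to Cxcl10 were Gbp2b (0.828), Gm43302 (0.819), Socs1 (0.807), a feedback inhibitor of cytokine signalling, Igtp (0.802) and Ifi47 (0.796). Cxcl10 ranked 21 in the order for Cxcl9, and Cxcl9 ranked 3 in that for Cxcl10, both with rho 0.808. For Cxcl11 the values were lower, with Gm4951 (0.594), Gbp4 (0.577), Iigp1 (0.568), Tap1 (0.551), a peptide transporter of antigen presentation, and Socs1 (0.550) in front. The order for Cxcr3 was led by other genes: Cd48 (0.722), Spn (0.717), Selplg (0.715), Itgal (0.712) and Ptpn22 (0.711). Cd48, Spn, Selplg and Itgal encode surface proteins of leukocytes. Cxcl9 ranked 342 for Cxcr3, with rho 0.572.

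Genes around the ligand cluster did not follow it as closely. Of the annotated genes within 100 kb of Cxcl10, Scarb2, a lysosomal membrane protein gene, had rho of 0.478 with Cxcl9 and 0.454 with Cxcl10, Sdad1 0.385 and 0.417, and Nup54, a nuclear pore gene, 0.313 and 0.370. Naaa had −0.21 and −0.10, Ppef2 −0.12 and −0.07, and Art3 −0.18 and −0.17. All were below the 0.808 between Cxcl9 and Cxcl10, and the small RNA genes Gm23031 and Gm26039 were at or under 0.480 CPM. These are descriptions without a test.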

How the data were processed

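The deposited files hold raw counts per gene, 1 file for each of 160 libraries, with no normalization. Per the labels and the submitters' processing notes the authors made ribosomal RNA-depleted stranded libraries, sequenced single ends on an Illumina instrument, and used STAR with the mm10 build and featureCounts of Subread. The annotation was an Ensembl gene build for mm10. Its release, the tool versions and the strand setting are not given in the sources used here. Identifiers were matched to GENCODE (95.99 percent of genes, 99.67 percent of counts). No 2 libraries of a group agreed within sampling noise.

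CPM were computed after TMM scaling over all libraries, and log2 CPM with a prior count of 2 (edgeR 4.0.16, R 4.3.3). Each comparison was fitted across all genes kept by filterByExpr, with edgeR's quasi-likelihood test and Benjamini-Hochberg adjustment at 0.05; SE was taken from the F statistic. Genotype was fitted within each line, adjusted for sex where both sexes were present (Nckap1l, Dock2), and sex was tested in the same fits. Strain was fitted on wild-type males, with the 3 C57BL6/J lines weighted equally. Correlations used 100000 permutations (Python 3.11.15, scipy 1.17.1), adjusted within 24 and 128 relations. DESeq2 1.42.0, limma-voom (limma 3.58.1), no count filter, covariates and left-out libraries were the alternatives. The fits were tested on simulated data. Runs of sample numbers separated by at least 50 were treated as possible batches, which the labels do not name as such.

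The 4 genes, the gene lists and the tests were chosen with earlier results of these data known. The text names the 4 genes, the 3 most abundant genes of a list where a result turns on it, Ifng, Irf1, Dpp4, Ackr3 and Pf4, the 5 nearest genes to each member, genes within 100 kb of Cxcl10, and list genes that passed. DSS treatment could not be a term, since the labels do not give it per library. Counting intervals and floors cover counting error only. Protein sequences were not used here, and 1 further partner gene is not reported here.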

Additional observations from a re-analysis of the deposited data

Results flagged for a closer look

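In 12 sets of 4 to 10 samples of one line, genotype, sex and run of sample numbers, each of the 4 genes was searched for a lowest or highest sample far from the rest, 48 searches in all. A sample stood apart in 3 searches, and Dock2 knockout replicate 3 in more than 1 of them. Chance sets apart about 1 in 20 such searches, so 3 of 48 is not read as an excess. In Dock2 knockout males Cxcl10 was at 31.2 CPM in replicate 3 while the next of 10 samples was at 6.65, and Cxcl11 was at 2.48 CPM in the same replicate while the next was at 0.975. In Nckap1l knockout males of the third run of sample numbers Cxcl11 was at 2.51 CPM in replicate 14 while the next of 4 samples was at 0.828.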

How the results depend on the processing

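The estimates that describe genotype and strain kept within 1 SD between samples of their value in all 131 and 27 alternatives run. An SD between samples is wider than the SE of an estimate, so this bound is loose and does not show that the estimates were stable. As given above, several moved by more than their SE, and some signs changed. Among them were Cxcl9 for genotype in the Nckap1l, Dock2 and Dok3 lines and Cxcl10 for strain. The calls for sex in the Dock2 line kept their direction and were lost as follows, with the cause not tested. For Cxcl9 the difference was −1.02 with limma-voom (adjusted p 0.170), −1.05 with the neutrophil marker mean, −1.09 in wild type only and −2.48 in knockout only. For Cxcl10 it was −0.66 with limma-voom (adjusted p 0.173), −1.03 with no count filter (adjusted p 0.0616), −0.62 with the neutrophil marker mean, −0.96 without libraries holding skin or muscle RNA (adjusted p 0.0996), −0.74 in wild type only and −1.42 in knockout only. Without Dock2 knockout replicate 3 the values were −0.97 and −0.63. DESeq2 kept both calls (adjusted p 0.00452 and 0.0153). In the Nckap1l line, where no call was made, the sign turned with runs of sample numbers as a term for Cxcl10 (0.58) and Cxcl11 (0.032), and without libraries holding skin or muscle RNA for Cxcl9 (0.96), Cxcl10 (0.30), Cxcl11 (0.53) and Cxcr3 (0.45). Leaving out wild-type replicate 10 or replicate 8 gave 0.086 to −1.59 for Cxcl9 and 0.19 to −0.44 for Cxcl11.

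Counts of genes called moved by over 1.5 times as follows. For genotype in the Nckap1l line, 0 became 21 with DESeq2 and 27 with no filter. In the Dock2 line 6 became 70 with DESeq2, 0 with limma-voom, 31 with no filter, 1 in males only and 69 without libraries holding skin or muscle RNA. In the Gpsm3 line 1 became 4 with DESeq2, 32 with no filter and 2 without those libraries, and in the Dok3 line 0 became 3 with DESeq2 and 15 with no filter. For sex in the Nckap1l line 32 became 192 with DESeq2, 55 with no filter, 95 with the neutrophil marker mean, 12 with runs as a term, 8 without libraries holding skin or muscle RNA, 5 in wild type only and 5 in knockout only, and 73 without wild-type replicate 10 (40 without replicate 8, within 1.5 times). For sex in the Dock2 line 1721 became 2987 without libraries holding skin or muscle RNA, 341 in wild type only and 21 in knockout only. The number of member pairs with an adjusted p under 0.05 stayed at 20 of 24 with group means kept and with the means of runs removed. The settings that leave out libraries, split by genotype or compare the lines' sex effects were chosen after seeing the data. No paired analysis was possible because sample numbers in the labels are unique to each sample and the groups share none. Depth limits Cxcl11 and Cxcr3 most, with medians of 8 and 11 counts.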
